A study of Mus musculus with 32 samples.

Results

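A family of 10 genes for cAMP sensors, PKA and its inhibitors was followed in cultured mouse hippocampal neurons: the PKA catalytic subunits Prkaca and Prkacb, the PKA regulatory subunits Prkar1a, Prkar1b, Prkar2a and Prkar2b, the PKA inhibitors Pkia and Pkib, and the Epac genes Rapgef3 and Rapgef4. They were taken by symbol from the deposited total RNA table, where all 10 were found among 51267 features, and all 10 passed the filter on low counts that left 17173 features for testing. The hippocampi came from newborn mice and were cultured to day 16 in vitro. For 30 minutes they then received 50 µM forskolin (FSK), which activates adenylyl cyclase, 30 µM DHPG, an agonist of group I metabotropic glutamate receptors, or an equal volume of the solvent DMSO. Total RNA was sequenced in 6 FSK, 6 DHPG and 4 DMSO libraries. No genotype or strain is named in the labels. They also do not say whether replicates are separate cultures or separate animals, so every p-value measures the spread between these libraries.

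PKA is the main kinase switched on by cAMP. At rest a dimer of regulatory subunits holds a pair of catalytic subunits inactive. When cAMP binds the regulatory subunits, the catalytic subunits are released and phosphorylate their targets, among them the transcription factor CREB. The PKI proteins are small inhibitors that occupy the catalytic site and carry the catalytic subunit out of the nucleus. The Epac proteins are a separate kind of cAMP sensor, exchange factors that load the small GTPase Rap with GTP. In hippocampal neurons these sensors are known for their part in synaptic plasticity.

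Libraries of the same treatment differed from each other. By depth and mitochondrial rRNA they formed 2 sets, here called deep (FSK 4 to 6, DHPG 6 and DMSO 2 to 4) and shallow (FSK 1 to 3, DHPG 1 to 5 and DMSO 1), divided at 30000000 counts. Totals ran from 20677117 to 59958600 counts, and mitochondrial rRNA took 10.8 to 27.7% of the deep and 1.47 to 2.92% of the shallow libraries. Within the deep set it took 22.2 to 27.7% of FSK libraries and 10.8 to 18.7% of DHPG and DMSO libraries. Whether this came with the treatment was not tested. FSK 4 and FSK 5 stood farthest out on the first principal component. Their summed level of 10 microglia markers was 152 and 278 CPM (reads relative to library size, scaled with TMM factors), against 5.72 to 30.9 CPM in the other 14 libraries. Neuronal markers were expressed in every library, with Slc17a7 at 425 to 976 CPM and Gad1 at 133 to 369 CPM, and 9 astrocyte markers summed to 3248 to 7520 CPM, so the cultures labelled neurons also held glial RNA. In such bulk RNA, fewer cells of a type and less RNA per cell cannot be told apart.

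No gene of the family passed edgeR's test in the main fit for FSK against DMSO or for DHPG against DMSO. The alternatives differed, as given with each comparison. Among them, edgeR with a block for replicate number called Prkaca for FSK against DMSO. Between FSK and DHPG, Prkar1b was lower and Prkar2b higher in FSK libraries, in a comparison where 30.8% of all features passed. These calls were lost when single libraries were left out, as given below. Levels are given as CPM and are compared between libraries of the same gene, since they were not divided by transcript length.

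**Figure D1:**
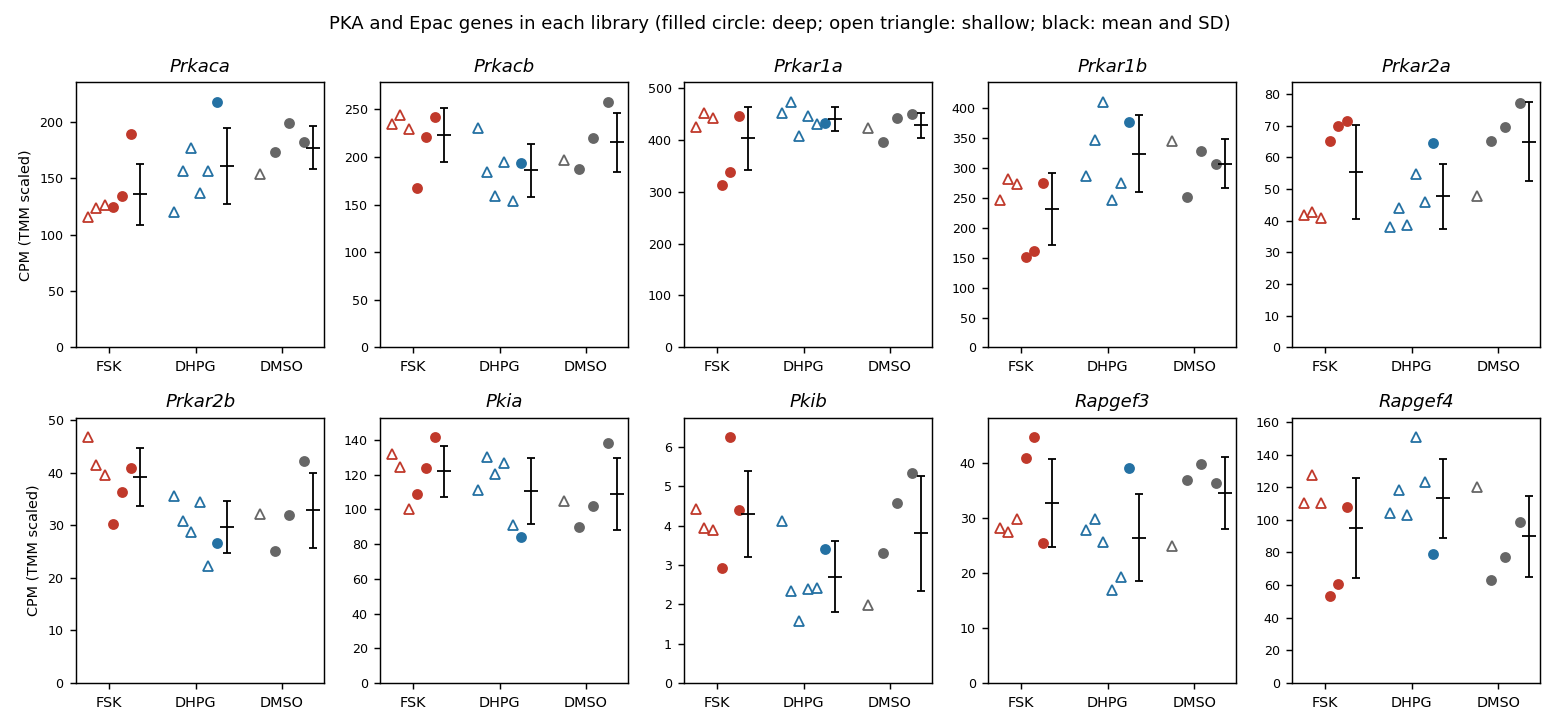
Level of each gene (y axis, CPM scaled with TMM factors, from 0) in each library of FSK, DHPG and DMSO (x axis), with filled circles for deep and open triangles for shallow libraries and black bars for mean and SD. For Prkaca, FSK libraries lay between 115 and 189 CPM, DHPG libraries between 120 and 217 CPM and DMSO libraries between 154 and 199 CPM.

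Promoter windows of 4 members are shown because the results turn on them: Prkaca and Prkar1b had the lowest log2 fold changes with FSK, Prkar2b was called between FSK and DHPG, and Prkar1a alone of the 9 members with a window holds a full cAMP response element, TGACGTCA. Each window is 300 bases of RefSeq sequence (GRCm38.p6), from 250 bases before the annotated start to 50 bases after it, read along the gene. Capitals mark TGACGTCA and its first part, TGACG or the reverse complement CGTCA, which overlaps it. Prkaca has 2 windows, Prkar1a 6, Prkar1b 5 and Prkar2b 2. The windows of Prkaca and Prkar1b were picked as the only ones of these genes with TGACG, that of Prkar1a as 1 of 2 with TGACGTCA, and that of Prkar2b as the first listed.
Prkaca, chr8:83972728-83973027, plus strand: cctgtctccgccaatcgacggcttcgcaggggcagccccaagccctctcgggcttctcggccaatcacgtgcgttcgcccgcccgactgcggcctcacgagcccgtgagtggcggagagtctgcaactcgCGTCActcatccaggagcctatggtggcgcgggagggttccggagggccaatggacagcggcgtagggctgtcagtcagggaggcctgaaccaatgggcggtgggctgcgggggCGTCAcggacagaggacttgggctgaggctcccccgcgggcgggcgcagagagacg
Prkar1a, chr11:109650699-109650998, plus strand: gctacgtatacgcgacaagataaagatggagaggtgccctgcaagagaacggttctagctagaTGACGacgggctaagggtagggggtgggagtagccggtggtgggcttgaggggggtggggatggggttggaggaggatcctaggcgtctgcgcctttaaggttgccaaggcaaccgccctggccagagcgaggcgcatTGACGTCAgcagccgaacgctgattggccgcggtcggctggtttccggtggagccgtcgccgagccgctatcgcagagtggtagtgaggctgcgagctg
Prkar1b, chr5:139149952-139150251, minus strand: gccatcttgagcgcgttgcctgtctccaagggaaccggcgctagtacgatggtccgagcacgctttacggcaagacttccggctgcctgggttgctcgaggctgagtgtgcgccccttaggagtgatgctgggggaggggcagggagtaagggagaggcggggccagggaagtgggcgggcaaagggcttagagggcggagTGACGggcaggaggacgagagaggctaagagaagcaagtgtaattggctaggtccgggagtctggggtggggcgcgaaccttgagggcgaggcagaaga
Prkar2b, chr12:32061228-32061527, minus strand: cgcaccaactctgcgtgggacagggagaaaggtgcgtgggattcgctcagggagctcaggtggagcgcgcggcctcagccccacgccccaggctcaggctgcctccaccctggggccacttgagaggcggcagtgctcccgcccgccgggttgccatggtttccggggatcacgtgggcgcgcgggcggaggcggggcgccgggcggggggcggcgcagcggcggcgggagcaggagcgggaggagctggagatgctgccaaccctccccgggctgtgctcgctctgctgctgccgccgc
RefSeq windows were matched for 9 of the 10 members, 23 windows in all. TGACGTCA was found on either strand in 1 member, Prkar1a, in 2 overlapping windows, and in 1.79% of all 32851 windows. In the Prkar1a window shown it begins 49 bases before the start site. The shorter TGACG, on either strand, was found in 8 of the 23 member windows and in 20.8% of all windows. By gene it was found in 6 of 9 members and in 23% of all 27025 genes. The members had more windows each, 23 for 9 members against 32851 for 27025 genes. More windows give a gene more chances of a match, so the shares by gene are not directly comparable. Prkar2b held neither in its windows. These are matches of letters and not measured binding.

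Among the catalytic subunits, Prkaca, which encodes the catalytic alpha subunit (chr8:83972978-83996444), had 115, 125 and 189 CPM as the lowest, median and highest of 6 FSK libraries. In DHPG libraries it had 120, 156 and 217 CPM, and the 4 DMSO libraries had 154, 173, 199 and 182 CPM. Of the 6 FSK libraries, 5 lay below every DMSO library and FSK 6 lay within their range. The log2 fold change of FSK against DMSO was -0.38 ± 0.16 (SE, 6 against 4 libraries, adjusted p = 0.181, edgeR quasi-likelihood test with Benjamini-Hochberg adjustment), with a 95% interval of -0.72 to -0.05. That difference did not pass the test, and with a term for library set it was -0.30 (adjusted p = 0.114). Within the sets the mean log2 CPM of FSK minus DMSO was -0.33 in deep and -0.34 in shallow libraries. Without FSK 4 and FSK 5 the log2 fold change was -0.35 (adjusted p = 0.284), and -0.13 (adjusted p = 0.534) with the term added. With all libraries and a block for replicate number, edgeR gave -0.52 (adjusted p = 0.0318), which passed. The labels state no such pairing.

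Prkacb, which encodes the catalytic beta subunit (chr3:146729579-146812946), had 168, 232 and 243 CPM as the lowest, median and highest in FSK libraries. DHPG libraries had 154, 189 and 230 CPM, and DMSO libraries 196, 187, 219 and 258 CPM. FSK and DMSO libraries overlapped, with only FSK 4 below every DMSO library. Against DMSO the log2 fold change was 0.05 ± 0.13 with FSK (95% interval -0.23 to 0.33) and -0.21 ± 0.13 with DHPG (95% interval -0.49 to 0.07). Prkacb took 62.3 ± 4.6% of the reads of both catalytic genes in FSK libraries, 53.8 ± 7.3% in DHPG libraries and 54.8 ± 3.2% in DMSO libraries (SD, n = 6, 6 and 4). This share is of reads, not divided by transcript length, and was not tested.

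Prkar1a encodes regulatory subunit RI alpha, which is found in most tissues (chr11:109649023-109669663). It had 312, 433 and 451 CPM as the lowest, median and highest in FSK libraries, 407, 439 and 472 CPM in DHPG libraries, and 423, 395, 441 and 449 CPM in DMSO libraries. FSK 4 and FSK 5, at 312 and 337 CPM, were the only FSK libraries below every DMSO library. The log2 fold change was -0.09 ± 0.11 with FSK and 0.04 ± 0.11 with DHPG against DMSO. The 95% intervals were -0.32 to 0.14 and -0.19 to 0.27.

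Prkar1b encodes RI beta, a regulatory subunit concentrated in brain (chr5:139017304-139150703). It had 152, 260 and 281 CPM as the lowest, median and highest in FSK libraries. DHPG libraries had 246, 317 and 410 CPM, and DMSO libraries 344, 251, 329 and 306 CPM. The lowest values, 152 and 161 CPM, were in FSK 4 and FSK 5, and the groups overlapped. FSK against DMSO gave a log2 fold change of -0.41 ± 0.19 (adjusted p = 0.232), which did not pass. It was -0.19 without FSK 4 and FSK 5 (adjusted p = 0.472), and -0.18 (adjusted p = 0.546) with the library-set term. FSK against DHPG gave -0.49 ± 0.17 (SE, 6 against 6 libraries, adjusted p = 0.0451), a level 0.714 times that of DHPG with a 95% interval of 0.553 to 0.922. Only 2 of 6 FSK libraries lay below every DHPG library. The gene Dnaaf5 overlaps Prkar1b in the annotation, and the strand setting used in counting is not stated.

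Prkar2a and Prkar2b encode the RII subunits, which bind A-kinase anchoring proteins and so place PKA at membranes and the cytoskeleton. Prkar2a (chr9:108692143-108750444) had 40.7, 54.1 and 71.5 CPM as the lowest, median and highest in FSK libraries, 38.1, 45.0 and 64.4 CPM in DHPG libraries, and 47.7, 65.3, 69.7 and 77.2 CPM in DMSO libraries. Its values differed between library sets. Deep libraries were 0.63 ± 0.09 higher than shallow ones on the log2 scale (adjusted p = 8.27e-05). For DHPG against DMSO the log2 fold change was -0.45 ± 0.20 (adjusted p = 0.400) and -0.07 ± 0.11 with the library-set term.

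Prkar2b (chr12:31958450-32061648), the RII form prominent in brain, had 30.2, 40.2 and 46.7 CPM as the lowest, median and highest in FSK libraries. DHPG libraries had 22.2, 29.8 and 35.5 CPM, and DMSO libraries 32.2, 25.03, 31.9 and 42.3 CPM. Of the 6 FSK libraries, 5 lay above every DHPG library, and FSK 4 overlapped them. FSK against DHPG gave a log2 fold change of 0.40 ± 0.14 (adjusted p = 0.0423), which is 1.32-fold with a 95% interval of 1.07 to 1.62. FSK against DMSO gave 0.25 ± 0.16 (adjusted p = 0.366), which did not pass.

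**Figure D2:**
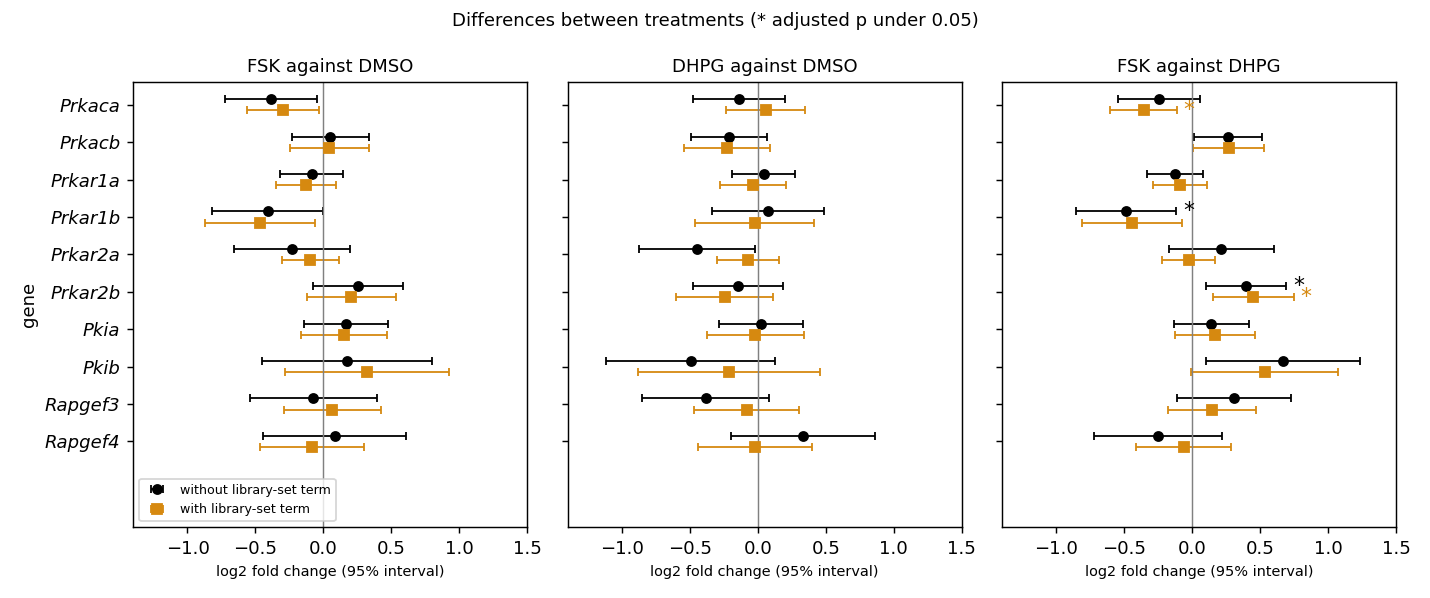
Log2 fold change with its 95% interval (x axis) for each gene (y axis) in 3 comparisons, without a term for library set (black circles) and with it (orange squares); a star marks an adjusted p under 0.05. Stars stand at Prkar1b (-0.49, without the term) and at Prkar2b (0.40 without and 0.45 with it) and Prkaca (-0.36 with it), all for FSK against DHPG.

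Read together, the regulatory genes held different shares of regulatory reads in different libraries. Prkar2b took 5.42 ± 0.55% in FSK libraries, 3.55 ± 0.68% in DHPG libraries and 3.92 ± 0.63% in DMSO libraries (SD, n = 6, 6 and 4). Every FSK library, at 4.90 to 6.15%, was above every DHPG library, at 2.87 to 4.41%, and above every DMSO library, at 3.401 to 4.83%. The margin to DMSO was narrow, at 4.90 against 4.83%, and the CPM of Prkar2b overlapped between FSK and DMSO libraries. The shares of the other regulatory genes overlapped between groups. How often shares separate in this way in other gene families was not computed. Prkar1a took 55.3 ± 0.89% in FSK, 52.5 ± 4.5% in DHPG and 51.4 ± 1.6% in DMSO libraries. The share of Prkar1b was 31.3 ± 3.5% in FSK, 38.3 ± 5.3% in DHPG and 36.9 ± 3.0% in DMSO libraries. Prkar2a held 7.95 ± 3.1% in FSK, 5.69 ± 1.2% in DHPG and 7.83 ± 1.5% in DMSO libraries. A rise in 1 share lowers the others by construction, the shares were chosen with earlier results known, and no test was made.

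**Figure D3:**
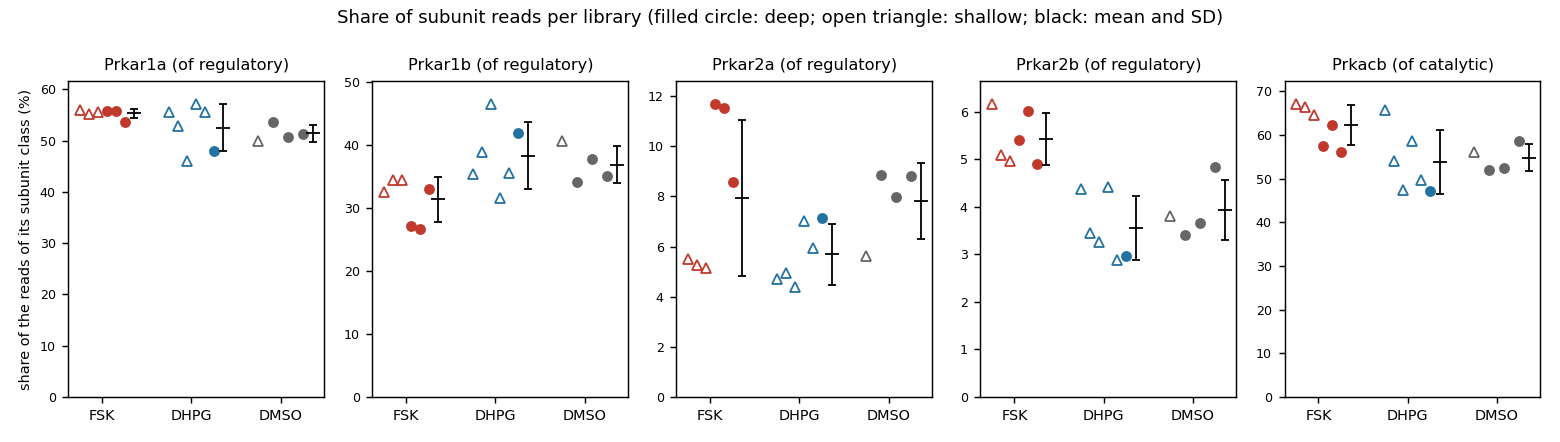
Share of the reads of its subunit class (y axis, percent, from 0) in each library of FSK, DHPG and DMSO (x axis) for the regulatory subunits and Prkacb, with filled circles for deep and open triangles for shallow libraries and black bars for mean and SD. Prkar2b sits at 4.90 to 6.15% in FSK libraries, above DHPG libraries at 2.87 to 4.41% and narrowly above DMSO libraries at 3.401 to 4.83%. Its level in CPM overlapped between FSK and DMSO libraries.

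Pkia and Pkib encode pseudosubstrate inhibitors of the catalytic subunit. Pkia (chr3:7366604-7445366) had 101, 124 and 142 CPM as the lowest, median and highest in FSK libraries, 84.2, 116 and 130 CPM in DHPG libraries, and 105, 90.0, 102 and 138 CPM in DMSO libraries. The groups overlapped, and the log2 fold change was 0.17 ± 0.15 with FSK and 0.02 ± 0.15 with DHPG. Pkib (chr10:57631981-57741112) was counted by 31 to 257 estimated reads per library, fewer than any other member. It had 2.91, 4.16 and 6.24 CPM in FSK libraries, 1.56, 2.39 and 4.12 CPM in DHPG libraries, and 1.99, 3.30, 4.58 and 5.33 CPM in DMSO libraries. FSK against DHPG gave 0.67 ± 0.27 (adjusted p = 0.0656), which did not pass.

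Both Epac genes differed between library sets, and neither passed a comparison of treatments in edgeR. Rapgef3, which encodes Epac1 (chr15:97744770-97768419), had 25.5, 29.0 and 44.7 CPM as the lowest, median and highest in FSK libraries. DHPG libraries had 17.0, 26.7 and 39.2 CPM, and DMSO libraries 24.9, 36.9, 39.8 and 36.3 CPM. Rapgef4, which encodes Epac2 (chr2:71981215-72257474), had 53.3, 109 and 128 CPM in FSK libraries, 79.1, 111 and 151 CPM in DHPG libraries, and 120, 62.9, 77.5 and 98.5 CPM in DMSO libraries. All groups overlapped. Rapgef3 was 0.52 ± 0.14 higher in deep libraries (adjusted p = 0.0106) and Rapgef4 was -0.62 ± 0.16 (adjusted p = 0.00662), on the log2 scale. The antisense gene Rapgef3os2 overlaps Rapgef3 and was counted at 2 to 88 reads per library, with the highest count in FSK 4, so Rapgef3 is uncertain to that extent.

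For FSK against DMSO, none of the 10 members passed, where 0.809% of all features did. None passed without FSK 4 and FSK 5, where 0.227% of features did, or with the term added, where 0.335% did. No member had FSK libraries all above DMSO libraries, against 3.62% of features, or all below them, against 4.36%. With the library-set term none passed either, where 9.45% of features did. At an unadjusted p under 0.05 in edgeR, Prkaca and Prkar1b passed, where 21.3% of features did. DESeq2 called 0 members, where 7.48% of features were called. With a block for replicate number, edgeR called 1 member, Prkaca (-0.52, adjusted p = 0.0318), where 531 of 17173 features were called. The planned limma-voom fit with sample quality weights called 5 members, where 35.2% of features were called. These were Prkaca (-0.60), Prkar2a (-0.65), Prkar2b (0.38), Rapgef3 (-0.39) and Rapgef4 (0.48). In the main fit Prkar2a was at -0.23, Rapgef3 at -0.07 and Rapgef4 at 0.08. Without weights, a fit added after seeing this, limma-voom called 0. The FSK effect was not shown to differ between deep and shallow libraries in any member, where 0.0175% of features passed that test. The largest such difference was -1.001 ± 0.60 for Pkib. Prkar1b was lower in FSK than in DMSO libraries by -0.64 in deep and -0.37 in shallow libraries, and Prkar2b was higher by 0.14 and 0.40. The shallow set has 1 DMSO library, so it gives no spread for DMSO. In the authors' deposited table, Prkaca had a log2 fold change of -0.39 (adjusted p = 0.117) and no member was under 0.05.

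**Figure D4:**
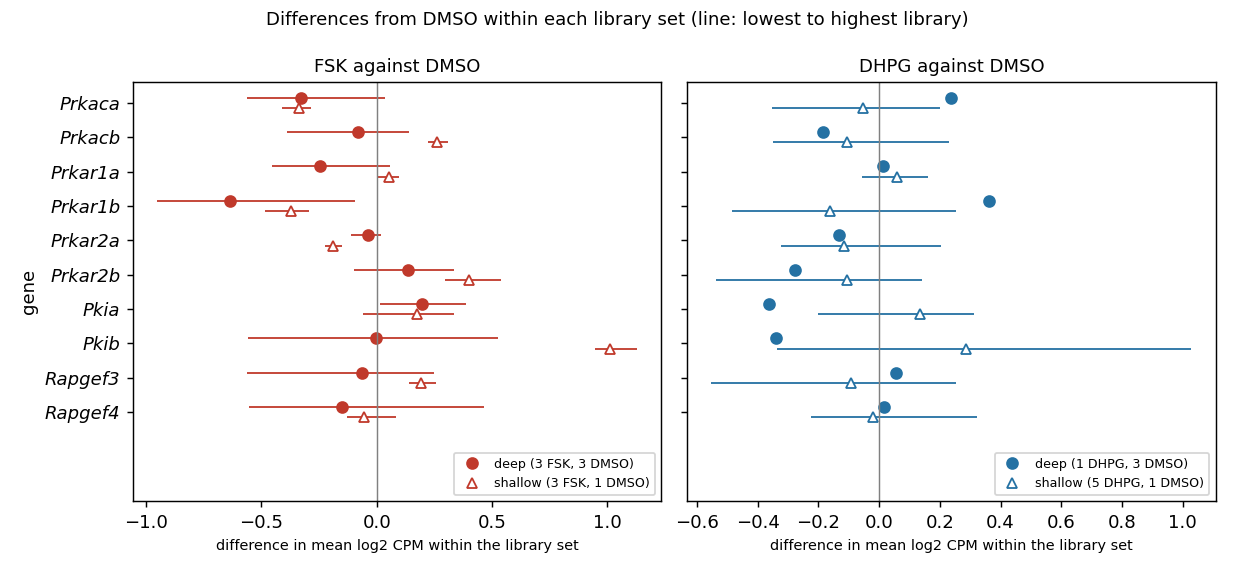
Difference in mean log2 CPM from DMSO (x axis) for each gene (y axis) within deep libraries (filled circles) and shallow libraries (open triangles), for FSK and DHPG; lines run from the lowest to the highest treated library. With FSK, Prkaca stood at -0.33 in deep and -0.34 in shallow libraries, and Prkar1b at -0.64 and -0.37.

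For DHPG against DMSO, none of the 10 members passed, where 0.00582% of features did, and with the library-set term none passed, where 0% of features did. At an unadjusted p under 0.05 in edgeR only Prkar2a passed, where 12.4% of features did. No member had DHPG libraries all above or all below DMSO libraries, against 0.641% and 0.67% of features. DESeq2 called 0 members, where 0.0408% of features were called. Limma-voom with sample quality weights called 6, where 34.7% of features were called, and without weights 0. The 6 were Prkaca (-0.29), Prkacb (-0.28), Prkar2a (-0.60), Pkib (-0.80), Rapgef3 (-0.62) and Rapgef4 (0.53). In the main fit Prkaca was at -0.14, Pkib at -0.49, Rapgef3 at -0.38 and Rapgef4 at 0.33. DHPG and FSK were set against the same 4 DMSO libraries, so these comparisons are not independent. Treatment and library set cannot be fully told apart here, since only DHPG 6 is deep among DHPG libraries and only DMSO 1 is shallow among DMSO libraries. In the authors' deposited table, Prkar2a had a log2 fold change of -0.44 (adjusted p = 0.181) with DHPG.

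For FSK against DHPG, 2 of the 10 members passed, Prkar1b and Prkar2b, where 30.8% of all features did, a share above that of the members. No member had FSK libraries all above or all below DHPG libraries, against 3.21% and 4.03% of features. DESeq2 called 3 members, Pkib (0.66) beside Prkar1b and Prkar2b, where 37% of features were called. Limma-voom with sample weights called 4, namely Prkaca (-0.31), Prkacb (0.38), Prkar2b (0.54) and Pkib (0.73), where 33.7% of features were called, and did not call Prkar1b (-0.28, adjusted p = 0.0737). With the library-set term Prkar2b (0.45, adjusted p = 0.0349) and Prkaca (-0.36, adjusted p = 0.0381) passed and Prkar1b did not (-0.44, adjusted p = 0.0706), where 23.3% of features did. Without FSK 4 and FSK 5 no member passed, where 0.0179% of features did, with Prkar1b at -0.27 (adjusted p = 0.213) and Prkar2b at 0.50 (adjusted p = 0.0904). With the library-set term added to that omission, Prkar2b passed (0.51, adjusted p = 0.0456), where 9.27% of features did. Prkar1b did not pass there (-0.27, adjusted p = 0.170). The call of Prkar1b was lost without FSK 1 (adjusted p = 0.0557), FSK 4 (0.0944), FSK 5 (0.103), DHPG 2 (0.0818), DHPG 3 (0.108), DHPG 5 (0.0590), DHPG 6 (0.0755), DMSO 3 (0.0571) or DMSO 4 (0.0551). The call of Prkar2b was lost without FSK 1 (adjusted p = 0.0821), FSK 2 (0.0622), FSK 3 (0.0546), FSK 5 (0.0668), FSK 6 (0.0630), DHPG 2 (0.0662), DHPG 3 (0.0815), DHPG 5 (0.0952), DHPG 6 (0.0682) or DMSO 3 (0.0545). Other members gained a call without 1 library: Pkib without DMSO 1 (0.0438) or DHPG 1 (0.0313), Prkacb without DHPG 1 (0.0411) and Prkaca without FSK 6 (0.0451). Over all 16 omissions Prkar1b stayed between -0.55 and -0.39 and Prkar2b between 0.33 and 0.46.

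FSK 4 and FSK 5, the lowest libraries for Prkar1b, also had the lowest summed neuronal markers. Their 9 excitatory markers summed to 859 and 918 CPM, with 1061 to 1252 CPM in the other FSK libraries, 1073 to 1704 CPM in DHPG and 1243 to 1679 CPM in DMSO libraries. Microglia markers, none of the 10 at 0 in any library, ranged over 7.68 to 278 CPM in FSK, 9.37 to 29.8 CPM in DHPG and 5.72 to 18.8 CPM in DMSO libraries. Their part in the Prkar1b difference was not tested.

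Library set itself was called in 4 of 10 members, where 34.5% of features were called. Prkaca was 0.36 ± 0.11 higher in deep libraries (adjusted p = 0.0179), beside Prkar2a, Rapgef3 and Rapgef4 above. Without FSK 4 and FSK 5 it was called in 3 members, where 24.8% of features were, and Rapgef3 no longer passed (0.42, adjusted p = 0.0787).

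Other genes of the pathway were read from lists chosen with earlier results known. Of 12 early genes known to be induced through cAMP, 6 were called higher with FSK than with DMSO, where 0.809% of all features were called. The median log2 fold change of the 12 was 1.57, beside a median of 0.02 over all features. Fosb, an AP-1 subunit, averaged 85.8 ± 7.2 CPM in FSK and 5.34 ± 4.0 CPM in DMSO libraries (log2 fold change 3.996 ± 0.45). Nr4a2, an orphan nuclear receptor, rose by 2.40 ± 0.33, Arc, a synaptic protein, by 2.18 ± 0.31 and Nr4a1 by 2.36 ± 0.41. Without FSK 4 and FSK 5, 4 of the 12 passed, where 0.227% of features did. With DHPG against DMSO none of the 12 passed, where 0.00582% of features did. Arc was at 1.75 ± 0.31 (adjusted p = 0.261) and Fosb at 1.82 ± 0.40 (adjusted p = 0.400).

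No gene of the other 6 lists passed in edgeR for FSK against DMSO or DHPG against DMSO, where 0.809% and 0.00582% of all features did. With so few features called, the lack of calls says little about these lists. With the library-set term FSK against DMSO called 9 of the 12 early genes, 3 genes of cAMP production and breakdown, 2 other cAMP effectors, 4 of the Rap list and 1 substrate, where 9.45% of all features were called. For cAMP production and breakdown that is 3 of 29, near that share. The 1 substrate was Crem, which is also in the early-gene list and is counted among its 9. The other 6 lists held 21 tested A-kinase anchoring proteins, 29 genes of cAMP production and breakdown and 8 other cAMP effectors. They also held 19 Rap GTPases and regulators, 15 PKA substrates and the pair Pkig and Prkx. The pair of smallest p is given for each list with FSK against DMSO. Among anchoring proteins Akap8, found in the nucleus, was at 0.34 ± 0.12 and Wasf1, an actin regulator, at -0.76 ± 0.32. In cAMP turnover Pde7a, a cAMP phosphodiesterase, was at 0.40 ± 0.11 and Adcy7, an adenylyl cyclase, at 2.10 ± 0.66. The channel gene Hcn2 was at -0.64 ± 0.22 and Hcn4 at -0.41 ± 0.21. For Rap, Sipa1l3, of the Rap GTPase-activating protein family, was at -0.63 ± 0.19 and the exchange factor Rapgef6 at 0.46 ± 0.15. Among substrates Crem was at 0.53 ± 0.16 and Syn1, a synaptic vesicle protein, at -0.74 ± 0.23, and the inhibitor gene Pkig was at -0.39 ± 0.14 and the kinase gene Prkx at 0.17 ± 0.23.

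With DHPG against DMSO the values of smallest p within each list were, for anchoring proteins, -2.16 ± 0.67 for Akap14 and 0.99 ± 0.35 for Akap3, both under 1 CPM on average. Pde4a was at -0.31 ± 0.23, Adcy6 at -0.17 ± 0.13, Bves at 0.42 ± 0.24 and Hcn3 at 0.40 ± 0.28. Sipa1l3 was at -0.53 ± 0.19, Rap2c at -0.42 ± 0.19, Syn1 at -0.59 ± 0.23 and Creb1 at -0.42 ± 0.20. None of these passed.

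FSK against DHPG called genes of every list but the pair Pkig and Prkx, where 30.8% of all features were called. Of the anchoring proteins 8 were higher and 1 lower. Among the higher were Akap14 (2.60 ± 0.62), Rab32 (1.69 ± 0.48) and Map2, a microtubule protein that binds RII (0.45 ± 0.13). Akap1, which places PKA on mitochondria, was lower (-0.35 ± 0.11). Akap14 and Rab32 had low levels with a wide spread in FSK libraries. Akap14 averaged 1.24 ± 1.21 CPM in FSK and 0.20 ± 0.12 CPM in DHPG libraries, and Rab32 3.81 ± 3.51 and 1.19 ± 0.35 CPM (SD). Of cAMP production and breakdown 4 were higher and 4 lower, among them Gnai3, an inhibitory G protein subunit (0.54 ± 0.14), Pde7a (0.36 ± 0.10), Pde3b (0.69 ± 0.19) and Adcy9 (-0.41 ± 0.10). Of the other cAMP effectors, the channel genes Hcn2 (-0.79 ± 0.20) and Hcn3 (-0.78 ± 0.25) were lower, the 2 called of 8. Of the Rap list 3 were higher and 7 lower, among them Rapgef6 (0.65 ± 0.13), Plce1 (0.94 ± 0.22), Rassf5 (-0.58 ± 0.14) and Rasip1 (-0.997 ± 0.26). Of the substrates 2 were higher and 2 lower: Creb1 (0.84 ± 0.18) and Crem (0.45 ± 0.14), against Ppp1r1b (-0.51 ± 0.14) and Ppp1r1a (-0.39 ± 0.13). Of the early genes 7 were higher, Fosb (2.17 ± 0.34), Nr4a2 (1.68 ± 0.27), Sik1 (0.96 ± 0.21) and Npas4 (1.68 ± 0.45) with the smallest p. Crem is in both lists and is counted among these 7 and among the substrates. Without FSK 4 and FSK 5, no gene of any of these lists passed in this comparison; with the library-set term added, 3 anchoring proteins, 2 genes of cAMP production and breakdown, 2 other effectors, 2 of the Rap list, 2 substrates and 4 early genes did, where 9.27% of features did.

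Within each library set the members varied together in part. Correlations of log2 CPM are given over 7 deep and 9 shallow libraries, which share treatment, depth and cell makeup within a set, so they only describe these libraries. Prkaca and Prkar1b had r = 0.99 in deep and 0.78 in shallow libraries, and Prkacb and Prkar2b had 0.84 and 0.92. Rapgef3 and Rapgef4 ran opposite, at -0.75 and -0.72. Rapgef4 followed the summed pan-neuronal markers (0.95 and 0.88), and Rapgef3 the astrocyte markers (0.59 and 0.84). Rapgef3 also ran with the oligodendrocyte-lineage markers (0.76 and 0.45) and the endothelial markers (0.40 and 0.78), so it was not tied to astrocyte markers alone. Prkaca followed the excitatory markers (0.94 and 0.87). These pairs were picked from all pairs of members and marker sums. Of 14707 features, the nearest to Prkaca by the lower of both r values was Ppp2r1a (0.99 and 0.99), then Ap3b2. The nearest were Acsl6 and Ids for Prkacb, Pkp4 and Amer1 for Prkar1a, Kat2a and Mapk3 for Prkar1b, and Plppr5 and N6amt1 for Prkar2a. They were Eif4e and Retreg1 for Pkia, mt-Nd2 and Nova1 for Pkib, Nbeal2 and Col9a3 for Rapgef3, and Hivep2 and Erc2 for Rapgef4.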

How the data were processed

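Total RNA was analysed in 16 libraries, grouped by the treatment in their labels; the miRNA libraries were not used. The submitters' processing notes name Salmon, DESeq and the GRCm38 build. The sources used here give neither their versions nor a strand setting. The labels' protocols give Trizol extraction and a stranded total RNA kit. The deposited table holds estimated counts, of which 26.6% are not whole; they were rounded for the tests. Control columns were matched to DMSO samples by number. The authors' deposited tables of comparisons give log2 fold changes, p-values and a mean signal per feature, quoted only where that table is named.

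Features passing filterByExpr (minimum count 10) were tested with edgeR 4.0.16 (R 4.3.3) in 1 quasi-likelihood fit over 3 groups with TMM scaling, no block, and Benjamini-Hochberg adjustment over 17173 features with a limit of 0.05. Every adjusted p comes from this fit unless another is named, and ± on a log2 fold change is its standard error. Log2 CPM was computed with a prior count of 2. Fits were tested on simulated data. Alternatives used DESeq2 1.42.0, limma 3.58.1, other scalings and filters, library set, and omitted libraries. The smallest library total was 20677117, and the members' counts limit precision most for Pkib.

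All 10 members are named. The features nearest to Prkar2b are not reported here. Of each list up to 4 called members of smallest p are named, or the 2 of smallest p as values. The members and lists were chosen with earlier results of these data known.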

Additional observations from a re-analysis of the deposited data

Results flagged for a closer look

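In 42 groups of libraries, each the CPM of 1 member or a regulatory share in 1 treatment, the highest and lowest library were compared with the nearest other library by Dixon's criterion, and 3 groups held a library that stood apart; chance gives about 1 in 20. Prkaca had 189 CPM in FSK 6, with the nearest FSK library at 134 CPM. Prkacb had 168 CPM in FSK 4, with the nearest at 221 CPM. The share of Prkar1a among regulatory reads was 53.6% in FSK 6, with the nearest at 55.3%.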

How the results depend on the processing

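All values are log2 fold changes or counts of features or members called. Features called in FSK against DMSO were 139 (60 higher, 79 lower), and in other settings 62 with library totals only (49 higher, 13 lower), 66 without a filter, 83 with only the groups compared, 1285 with the DESeq2 Wald test, 1622 with the library-set term, 11 in shallow libraries, 38 without FSK 4 and 5, and 56 without both and with the term. In DHPG against DMSO 1 feature was called, and 2129 passed an unadjusted p under 0.05 in that edgeR fit. With DESeq2 7 were called. The count was 0 with the library-set term, with only the groups compared, and without FSK 4 and 5 with or without the term. With the library-set term 400 passed an unadjusted p under 0.05 in edgeR. In FSK against DHPG 5283 were called (2803 higher, 2480 lower), 2510 with library totals only (1760 higher, 750 lower), 2905 without a filter, 0 in deep and 9 in shallow libraries, 3 without FSK 4 and 5, and 1551 without both and with the term. Members called in FSK against DHPG were 0 with library totals only, without a filter, in either set alone and without FSK 4 and 5, and 1 with only the groups compared or without FSK 4 and 5 with the term. Leaving out 1 library gave 12 to 427, 0 to 5 and 1804 to 5798 features for FSK against DMSO, DHPG against DMSO and FSK against DHPG, and 0 to 4 members in the last. For FSK against DMSO the count moved by over 1.5 times without libraries 1 (77), 2 (68), 4 (47) or 5 (35) of FSK, libraries 1 (224), 2 (47), 5 (61) or 6 (427) of DHPG, or libraries 1 (60), 2 (31), 3 (12) or 4 (47) of DMSO. For FSK against DHPG it did so without libraries 4 (2575) or 5 (1804) of FSK or libraries 2 (3031), 3 (1924) or 5 (2380) of DHPG.

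The planned limma-voom fit with sample quality weights called 6051, 5960 and 5783 features and 5, 6 and 4 members in the same 3 comparisons. Its weights were 0.190 to 0.457 for FSK 4 to 6, 0.386 for DHPG 6 and 0.403 for DMSO 1. The other weights were 0.893 to 3.84, so the fit rests mostly on shallow FSK and DHPG and deep DMSO libraries. In its comparisons with DMSO, treatment and library set therefore cannot be told apart. Its comparison of FSK with DHPG rests mostly on shallow libraries of both groups. Without weights, added after seeing them, limma-voom called 244, 0 and 4989 features and 0, 0 and 2 members.

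Same-numbered libraries gave r = -0.41 to 0.39 after removal of treatment means. Library set was not removed and often differs between same-numbered libraries, so these values cannot decide whether the numbers pair them. The labels state no pairing, so the main fit has no block. With the replicate block 531, 0 and 4172 features were called, and Prkaca was called in FSK against DMSO (-0.52, adjusted p = 0.0318), the 1 member there. In FSK against DHPG the block called Prkaca (-0.24, adjusted p = 0.0425) and Prkar1b (-0.50, adjusted p = 0.0303), and Prkar2b lost its call (0.41, adjusted p = 0.0536).

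Reversed signs were found only for members not called in the main fit of that comparison, some of which limma-voom with sample weights called. For FSK against DMSO these were Rapgef3 (0.066) and Rapgef4 (-0.086) with the library-set term, Prkacb (-0.083) and Rapgef4 (-0.11) in deep libraries, Prkar1a (0.062), Rapgef3 (0.20) and Rapgef4 (-0.046) in shallow libraries, Pkib (-0.067) with sample weights, and Prkar1a without FSK 4 and 5 (0.045, and 0.048 with the term). For DHPG against DMSO they were, with the term, Pkia (-0.018), Prkaca (0.058), Prkar1a (-0.037), Prkar1b (-0.023) and Rapgef4 (-0.022), in deep libraries Pkia (-0.37), Prkaca (0.25) and Rapgef3 (0.073), in shallow libraries Pkib (0.37), Prkar1b (-0.14) and Rapgef4 (-0.00063), and without FSK 4 and 5 with the term Pkia (-0.0044) and Prkaca (0.13). For FSK against DHPG they were Prkar2a with the term (-0.026), with sample weights (-0.043), in shallow libraries (-0.084) and without FSK 4 and 5 with the term (-0.030), Rapgef3 in deep libraries (-0.11), and without FSK 4 and 5 Prkar1a (0.0053, and 0.0049 with the term) and Rapgef4 (0.014, and 0.071 with the term). Leaving out 1 library turned signs within these ranges: with FSK, Prkacb -0.0023 to 0.15, Pkib -0.036 to 0.38, Rapgef3 -0.20 to 0.0017 and Rapgef4 -0.052 to 0.26; with DHPG, Pkia -0.041 to 0.16, Prkar1b -0.0041 to 0.14 and Prkar2b -0.24 to 0.0019. The share of Prkar1a, FSK minus DMSO, was 5.66 points in shallow libraries; DHPG minus DMSO it was -3.90 in deep libraries, that of Prkar1b 6.31 there and that of Prkar2a -0.23 in shallow libraries. Shares per transcript length were not run, since no lengths were used here. Other causes were not tested.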
